A study of Mus musculus with 4 samples.

Results

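Granular duct epithelial cells were followed in 4 single-cell libraries of mouse submandibular gland, a major salivary gland. They were taken as the cell barcodes in which the 13 Klk1b kallikrein genes supplied at least 5% of all UMIs (unique molecular identifiers, counts of captured RNA molecules). A barcode also needed at least 1 UMI of the epithelial genes Epcam, Krt8, Krt18 or Krt7, and no UMI of Ptprc (leukocytes) or Pecam1 (endothelium). Barcodes were retained with 300 detected genes or more and a mitochondrial share of UMIs no higher than 10%. This left 36685 of 39558 deposited barcodes, and 180 of them were granular duct cells by the rule. Because Klk1b UMIs chose the cells, every level in them against other barcodes is a description and carries no test.

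All mice were female C57BL6/J. In 2 libraries (deligated, age 14 weeks) a metal clip had closed the main ducts for 14 days and had been off for 5 days at harvest, and in the other 2 (homeostatic, age 12 weeks) no surgery was done. Every gland was depleted of cells with EpCAM, an epithelial surface protein, and of Ter119-marked red blood cells, so that the samples were enriched for stroma and the epithelial cells are those that escaped depletion. The protocols name the sublingual gland beside the submandibular gland, whereas the tissue labels name the submandibular gland alone. How many animals gave a library is not stated, so p-values measure only the spread between libraries, which may be technical. Age and surgery differed together between the groups, and so did the Cell Ranger version in the file headers. These cannot be told apart.

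The granular convoluted tubule is a segment of the rodent submandibular duct between the intercalated and the striated duct. Its cells store secretory granules that hold tissue kallikreins, epidermal growth factor and renin, and release them on sympathetic stimulation. The segment is larger in male than in female mice and depends on androgens and thyroid hormone. Tissue kallikreins are secreted serine proteases. Klk1 releases kinins from kininogen, and the Klk1b genes are a mouse expansion of the same gene, among them binding proteins of epidermal growth factor (Klk1b9 and Klk1b22) and processing enzymes of prorenin (Klk1b16 and Klk1b26).

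The 14 family genes lie in 1 block on the plus strand of chromosome 7, at chr7:43950664-44229618 of GRCm38 in the GENCODE M21 annotation, a span of 278955 bp. Klk1b8 is the first in that block and Klk1 the last. Each has 5 exons in its longest coding transcript, of 839 to 1391 bases. Pairs of Klk1b transcripts were 82.3 to 94.1% identical (median 86.75%, 78 pairs) and Klk1 was 94.2% identical to Klk1b5. How the authors' counting divided reads between such copies is not given in the sources used here, so the level of a single family gene is uncertain. Klk1 and 3 Klk1b genes (Klk1b1, Klk1b8 and Klk1b9) also have an annotated antisense neighbour, and whether counting used strand is not given either.

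The promoters of genes that mark these cells are shown because most Klk1b genes share the sequence TTTAAA near the annotated start. Each line gives the 120 bases before the annotated start, from RefSeq on GRCm38.p6. The windows are chr7:44112553-44112672 for Klk1b22, chr7:43975941-43976060 for Klk1b9, chr7:43995757-43995876 for Klk1b11, chr7:44225240-44225359 for Klk1 (all plus strand) and chr17:40242289-40242408 (minus strand) for Crisp3, another marker of the cells. Capitals mark TTTAAA in the Klk1b genes and TATAAA in Crisp3.
Klk1b22: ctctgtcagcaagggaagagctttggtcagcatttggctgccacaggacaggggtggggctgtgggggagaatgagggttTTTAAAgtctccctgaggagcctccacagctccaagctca
Klk1b9: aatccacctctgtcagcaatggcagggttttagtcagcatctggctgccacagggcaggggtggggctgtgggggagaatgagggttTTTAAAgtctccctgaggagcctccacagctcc
Klk1b11: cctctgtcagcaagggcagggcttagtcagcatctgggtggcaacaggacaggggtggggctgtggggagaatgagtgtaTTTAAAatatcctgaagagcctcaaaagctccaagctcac
Klk1: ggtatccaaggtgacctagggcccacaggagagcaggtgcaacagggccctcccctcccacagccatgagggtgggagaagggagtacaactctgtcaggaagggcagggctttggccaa
Crisp3: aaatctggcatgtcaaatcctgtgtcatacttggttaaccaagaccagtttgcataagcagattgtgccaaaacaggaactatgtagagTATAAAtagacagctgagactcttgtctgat

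The printed promoters of Klk1b22 and Klk1b9 were 93.8% identical over 113 aligned bases. TTTAAA, which reads the same on both strands, occurred in the 250 bases before the start of 12 of 13 Klk1b genes (all but Klk1b21) and not in Klk1, against 12.1% of 32851 promoters. It lay wholly between 40 and 11 bases before the start in 8 of the 13, against 1.56% of promoters. TATAAA was found in none of the 13 on either strand, against 12.4% of promoters on either strand. The end of the Klk1 window resembles the beginning of the Klk1b22 window, so the windows need not cover the same stretch of each gene. A match is only a match of letters.

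Granular duct cells were found almost wholly in the homeostatic libraries. There were 0 among 4521 retained barcodes of deligated 1, 5 among 8386 of deligated 2, 65 among 11713 of homeostatic 1 and 110 among 12065 of homeostatic 2. The shares were 0% (a count of 0 allows up to 0.0664%, 3 counts of the total), 0.0596% (exact Clopper-Pearson interval at 95%, 0.0194 to 0.139%), 0.555% (0.429 to 0.707%) and 0.912% (0.750 to 1.10%). The limit and the intervals cover counting error only. The homeostatic share was 0.733 ± 0.252% (SD, n = 2) and the 2 homeostatic intervals did not overlap, nor did either reach the deligated interval or limit.

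As a share of all epithelial barcodes the groups were not separated. Retained epithelial barcodes, granular duct cells included, numbered 59 and 141 in the deligated and 3230 and 3465 in the homeostatic libraries. Granular duct cells made up 0% (3 counts: up to 5.085%), 3.55% (1.16 to 8.08%), 2.01% (1.56 to 2.56%) and 3.18% (2.62 to 3.81%) of them. The deligated intervals overlap both homeostatic ones. EpCAM depletion can set how many epithelial cells a library holds, and its part in the shares was not tested.

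**Figure D1:**
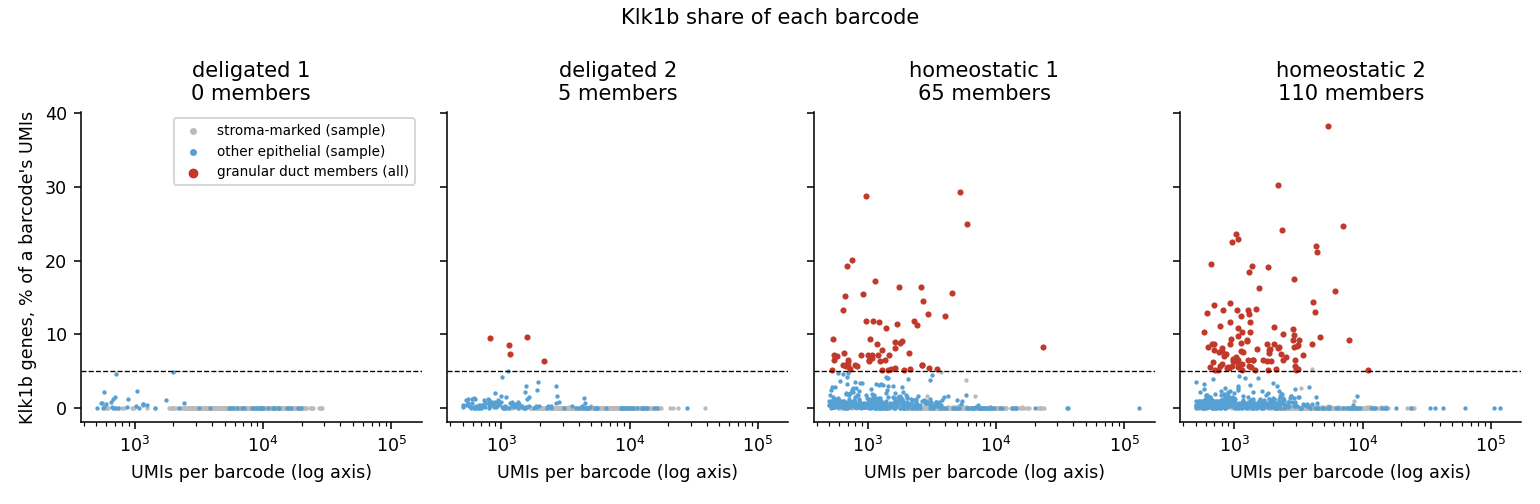
Percent of a barcode's UMIs from the 13 Klk1b genes (vertical axis) against UMIs per barcode (log axis) in each library, with all granular duct members in red and seeded samples of other epithelial (blue) and stroma-marked barcodes (grey); the dashed line is the 5% rule. Members run from 0 and 5 in the deligated to 65 and 110 in the homeostatic libraries, and blue points reach up to the line without a gap.

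The rule cut through a continuous range. In the homeostatic libraries 43 and 35 epithelial barcodes lay just outside it, at 4 to 5% Klk1b UMIs, and 17 and 22 just inside, at 5 to 6%. Crisp3, which encodes a cysteine-rich secretory protein, stood at 7592 and 8620 CPM (its UMIs per 1000000 UMIs of the class) just outside and 7938 and 7741 just inside. Klk1 stood at 184600 and 81290 CPM outside and 98610 and 186400 inside. Of barcodes with 5% Klk1b UMIs or more in the homeostatic libraries, 6 had a UMI of Ptprc or Pecam1, 14 had no epithelial UMI, and 30 failed only the filters on genes or mitochondrial UMIs.

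Granular duct cells were shallow barcodes. Median UMIs were 1222 in homeostatic 1 and 1297.5 in homeostatic 2, over a range of 523 to 23204. Other epithelial barcodes had medians of 1184 and 1163, and stroma-marked barcodes (those with a UMI of Ptprc or Pecam1) 4402 and 4360.5. Library totals were 35662241 to 53898793 UMIs. Between 14 and 54 barcode sequences recurred in a pair of libraries, and no sequence was a member in both. One member was scored as a doublet. Mitochondrial UMIs were scarce: their median share was 0.0799% and 0.0888%, and 27 of 65 and 37 of 110 members had none. Malat1, a nuclear RNA, had no UMI in 40 of 65 and 71 of 110 members.

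After every barcode was thinned to 500 UMIs, Malat1 was detected in 24.6% and 18.2% of granular duct cells, 26.7% and 26.5% of other epithelial barcodes and 93.5% and 93.2% of stroma-marked barcodes. Without thinning the shares were 38.5% and 35.5%, 42.1% and 44.5%, and 95.6% and 95.1%. A mitochondrial UMI was found after thinning in 47.7% and 45.5% of granular duct cells, 48.6% and 49.7% of other epithelial and 98.7% and 98.4% of stroma-marked barcodes. Epithelial barcodes of either kind thus held these RNAs less often than stroma-marked barcodes at equal depth. Whether a granular duct barcode was an intact cell was not tested.

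One member of homeostatic 1 stood apart with 23204 UMIs, when the next highest member of either library had 11067. Of all UMIs in homeostatic 1 members it held 381 of 418 for Malat1, 2825 of 2851 for the haemoglobin gene Hbb-bs, 33 of 42 for Egf and 56 of 62 for Esrrg.

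Kallikrein RNA dominated the granular duct cells. Klk1 and the Klk1b genes together took a median of 23.4% of UMIs per cell in homeostatic 1 and 29.6% in homeostatic 2, with maxima of 63.2% and 59.0%. Klk1, which the rule did not use, was the most abundant family RNA at 174000 and 219400 CPM. Klk1b26 followed at 57730 and 64410 CPM and supplied 52.9% and 56.6% of Klk1b UMIs. UMIs count transcripts and were not divided by length.

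Below Klk1b26 came Klk1b11 at 10250 and 11930 CPM, Klk1b5 at 9647 and 9376, and Klk1b9 at 9606 and 7979. Klk1b5 and Klk1b9 differed by less than Klk1b9 did between the libraries. Klk1b22 stood at 7058 and 5635 and Klk1b4 at 5499 and 5630, nearly equal in homeostatic 2. Klk1b16 (2942 and 2533), Klk1b3 (2339 and 2126) and Klk1b21 (2098 and 2169) were lower, and Klk1b8, Klk1b27, Klk1b1 and Klk1b24 ranged from 232 to 791. In the 2 homeostatic libraries Klk1b26 was found in all 175 members, Klk1b22 in 164, Klk1b16 in 127 and Klk1b24 in 55.

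**Figure D2:**
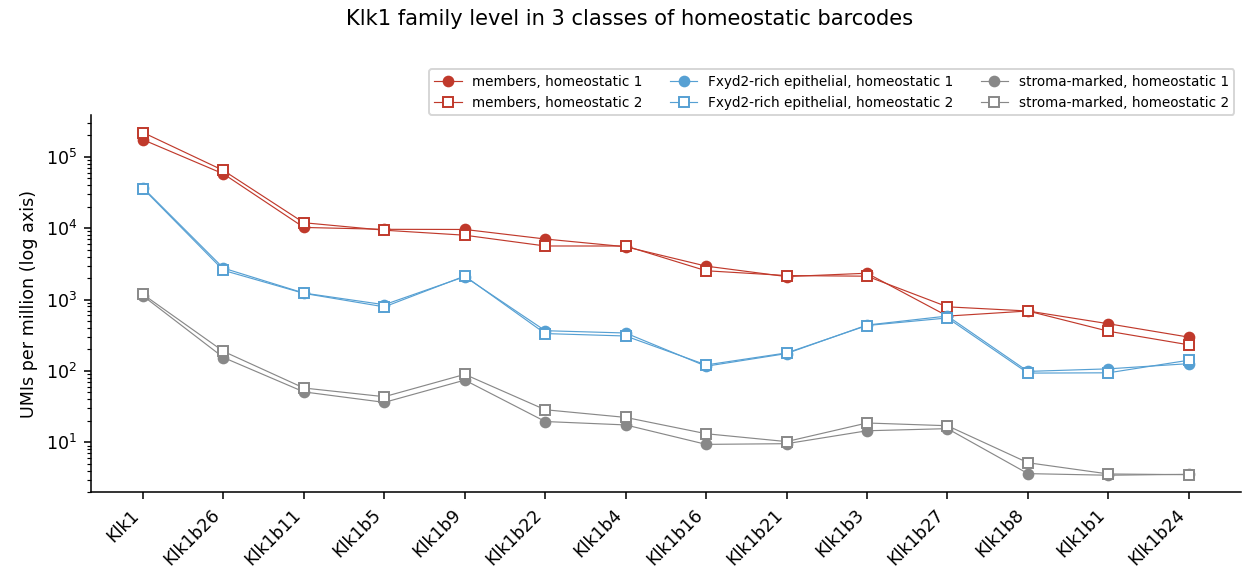
CPM (log axis) of the 14 family genes in granular duct members, Fxyd2-rich epithelial barcodes and stroma-marked barcodes; each point is 1 homeostatic library, and lines only join points of a library. The 2 libraries overlie each other, members lie highest for 13 of the genes, and Klk1b27 is at 587 and 791 in members against 588 and 552 in Fxyd2-rich barcodes.

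The mix of family genes differed from that in other epithelial barcodes, by similar values in both libraries. Klk1b26 made up 52.9% and 56.6% of Klk1b UMIs in granular duct cells against 30.8% and 29.8% in other epithelial barcodes. Klk1b9 made up 8.80% and 7.01% against 21.7% and 22.8%, and Klk1b27 0.537% and 0.694% against 6.0% and 5.87%. There were 3.01 and 3.41 Klk1 UMIs per Klk1b26 UMI in granular duct cells, 12.5 and 13.1 in other epithelial and 7.31 and 6.30 in stroma-marked barcodes. In CPM, Klk1b16 was 55.9-fold and 48.4-fold, Klk1b26 48.6-fold and 57.2-fold and Klk1b22 45.5-fold and 38.6-fold above other epithelial barcodes, but Klk1b27 only 2.53-fold and 3.57-fold. The rule chose the cells by these Klk1b UMIs. The fold values and the Klk1 UMIs per Klk1b26 UMI therefore follow in part from the rule.

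Single granular duct cells varied widely in the balance of Klk1 and Klk1b. The Klk1 share of a cell's UMIs ran from 0.0730 to 48.6% in homeostatic 1 (median 14.3%) and from 0.163 to 50.0% in homeostatic 2 (median 15.97%). The Klk1b share ran from 5.10 to 29.2% (median 7.48%) and from 5.13 to 38.3% (median 8.37%). Klk1 exceeded the summed Klk1b UMIs in 118 of 175 cells and lay below them in 57, and 61 cells lay within 2-fold of equality, so that the division marks a range. Within Klk1b, Klk1b26 led alone in 64 of 65 and 106 of 110 cells. In homeostatic 1 the exception was 1 cell where Klk1b5 and Klk1b9 tied at 13 UMIs. In homeostatic 2 the exceptions were Klk1b9 (3 cells, a tie with Klk1b26 at 29 UMIs among them) and Klk1b11 (1 cell).

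**Figure D3:**
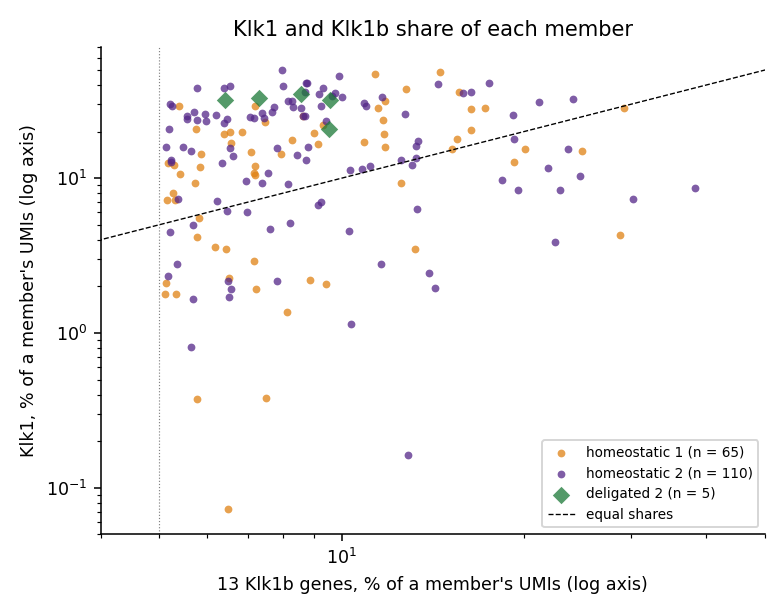
Klk1 (vertical, log axis) against the 13 Klk1b genes (horizontal, log axis), each as percent of a member's UMIs, 1 point per member; the dashed line marks equal shares and the dotted line the 5% rule. In homeostatic members 118 points lie above the line of equality and 57 below it, and the 5 deligated 2 members all lie above it.

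Cells with less Klk1 than Klk1b RNA held more Crisp3, which was not counted in the division but rose with the Klk1b share. It stood in them at 22900 and 23880 CPM, against 14030 and 11370 in cells with more Klk1. Klk1b16 stood at 5691 and 5648 against 1814 and 1229, and Klk1b9 at 14590 and 15740 against 7563 and 4729. Egf had a UMI in 2 of 23 and 6 of 34 cells with less Klk1, against 6 of 42 and 4 of 76 cells with more Klk1. Its summed level in the latter comes mostly from 1 cell in each library, with 33 of 40 and 20 of 23 UMIs, so the sums are not compared. The division itself favours Klk1b genes in the first set of cells, with Klk1b UMIs at 14.8% and 15.8% against 9.31% and 9.55%. Crisp3 stood at 7938 and 7741 CPM in members at 5 to 6% Klk1b UMIs and at 36470 and 34640 at 20% or more. Its difference between the sets is thus not separate from their Klk1b share. Fxyd2, a striated duct gene, was at about the same level in both sets, 10910 and 12290 against 11180 and 12980 CPM.

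The other secretory products of the granular duct were present to very different degrees. Crisp3 was found in all 175 homeostatic members, at 16610 and 15060 CPM. Egf, epidermal growth factor, was found in 8 and 10 cells, at 338 and 147 CPM, but 1 cell held 33 of 42 Egf UMIs in homeostatic 1 and another 20 of 31 in homeostatic 2. Without that cell the levels were 88.9 and 53.6 CPM. Other epithelial barcodes held Egf at 16.2 and 12.2 CPM. After thinning, Egf was detected in 7.69% and 4.55% of granular duct cells against 0.632% and 0.596% of other epithelial and 0.0756% and 0.166% of stroma-marked barcodes, and unthinned in 12.3% and 9.09%, 2.50% and 2.15%, and 1.09% and 1.13%.

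Wfdc2, a secreted protein of the whey acidic protein family, stood at 1150 and 1402 CPM against 170 and 169 in other epithelial barcodes. Ren1, which encodes renin, had 1 UMI over all homeostatic members, and Crisp1, Smr2 and Smr3a had none. Of the cell type markers, Klk1b22, Klk1b16 and Krt7 took part in the rule, so that only Crisp3 bears on the label independently. Krt7 stood at 426 and 421 CPM, against 289 and 325 in other epithelial barcodes and 687 and 735 in Fxyd2-rich ones. The RNA of these barcodes carries kallikreins and Crisp3, but nearly no Ren1 and, in most cells, no Egf UMI at this depth.

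Granular duct cells were compared with 2 sets of epithelial barcodes that had under 5% Klk1b UMIs. The first was all other epithelial barcodes (3165 and 3355 per homeostatic library), which include acinar cells, the makers of saliva fluid and mucin-like proteins. The second was its Fxyd2-rich part (2363 and 2543), with Fxyd2 at 1% of UMIs or more and Mucl2, an acinar product, under 10%. Fxyd2 is a regulatory subunit of the sodium pump and marks striated duct cells, which are rich in mitochondria. A gene was measured when it averaged at least 100 CPM, and was called higher or lower at 2-fold or more in both libraries, after adding 5 CPM. The average was over both sets, so a gene could be measured through its level in granular duct cells alone. Genes of the rule were left out of the counts.

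Against all other epithelial barcodes, 41 of 861 genes (4.76%) were higher in granular duct cells and 26 (3.02%) lower, and the median log2 ratio was 0.318. With the kallikrein family taken out of the totals, 204 of 1056 (19.3%) were higher and 22 (2.08%) lower, with a median of 0.806, so single genes are read against the median. Against Fxyd2-rich barcodes, 33 of 1110 genes (2.97%) were higher and 47 (4.23%) lower, with a median of -0.629. Without the family in the totals these became 57 of 1291 (4.42%) and 6 (0.465%), with a median of -0.167. Leaving out the deepest member gave 44 of 874 genes (5.03%) higher and 35 (4.0%) lower than all other epithelial barcodes, and 29 of 1107 (2.62%) higher and 41 (3.7%) lower than Fxyd2-rich ones. Leaving out both that member and the family from the totals gave 25.8% higher and 2.68% lower in the first comparison, and 4.16% and 0.462% in the second.

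Of the other granular duct products, 5 of 12 were measured and 4 were higher in both comparisons, Crisp3, Egf and Wfdc2 among them. Of the 3 that averaged 100 CPM in the comparison set itself 2 were higher in both, Crisp3 and Wfdc2. Without the deepest member Egf was under the level needed, and 3 of 4 measured were higher. Against Fxyd2-rich barcodes, Crisp3 was 10.7-fold and 9.94-fold and Wfdc2 2.74-fold and 3.77-fold higher. The exception was Wfdc18, at 16.1 and 464 CPM, far apart in the 2 libraries.

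Of 29 genes of protein folding and export in the endoplasmic reticulum (ER), 10 were measured against Fxyd2-rich barcodes, 6 of them higher and 0 lower. All 6 passed the filter only through their level in granular duct cells. Of 4 genes of the list that averaged 100 CPM in Fxyd2-rich barcodes themselves, 0 were higher, so the count says nothing of the list. The ER chaperone Hspa5 stood at 289 and 137 CPM against 25.8 and 24.6, and at 138 in homeostatic 1 without the deepest member, when all other epithelial barcodes held 115 and 104. In members at 5 to 6% Klk1b UMIs Hspa5 stood at 37.6 and 49.9 CPM. With members taken from 2% Klk1b UMIs its direction against all other epithelial barcodes reversed. Manf, a secreted ER stress protein, stood at 249 and 336 against 76.1 and 80.0 in Fxyd2-rich barcodes. Spcs2, a signal peptidase subunit, stood at 305 and 365 against 83.0 and 92.9, and the translocon gene Sec61b, at 683 and 734 against 706 and 720, was not called. Without the deepest member 3 of 7 measured were higher than in Fxyd2-rich barcodes. Against all other epithelial barcodes 2 of 10 were higher, with a median log2 ratio of 0.833 against 0.318 over all genes. Without the kallikrein family in the totals this became 6 of 10, with a median of 1.33 against 0.806, when 19.3% of all genes were higher. Against Fxyd2-rich barcodes it became 7 of 11, when 4.42% of all genes were higher. There too a gene could be measured through its level in granular duct cells alone.

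Of 11 genes of the mitochondria-rich striated duct, 7 were measured against Fxyd2-rich barcodes, Fxyd2 itself included, with 2 lower and 1 higher. Without Fxyd2, which chose that set, the median log2 ratio was -1.01 against -0.629 over all genes, and against all other epithelial barcodes the list's median was 0.36 against 0.318. The 2 lower genes were Cox7a1, at 129 and 194 CPM against 380 and 456, and Cox8b, at 64.3 and 104 against 191 and 227, both subunits of cytochrome c oxidase. Without the kallikrein family in the totals 2 genes of the list were higher and 0 lower. Fxyd2 itself stood at 11100 and 12780 CPM against 25110 and 25360 in Fxyd2-rich barcodes, which were chosen on it, and 9514 and 9802 in all other epithelial barcodes. It reached 1% of UMIs in 41 of 65 and 71 of 110 granular duct cells. Slc25a4, a mitochondrial ADP/ATP carrier, stood at 378 and 545 against 995 and 1027, and Ckmt1, mitochondrial creatine kinase, at 249 and 341 against 542 and 534; neither was called. Atp1b1, the beta subunit of the sodium pump, was the 1 higher gene, at 900 and 767 against 286 and 277. In homeostatic 1 the deepest member held 52 of its 112 UMIs, and without that member the level was 593 CPM.

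**Figure D4:**
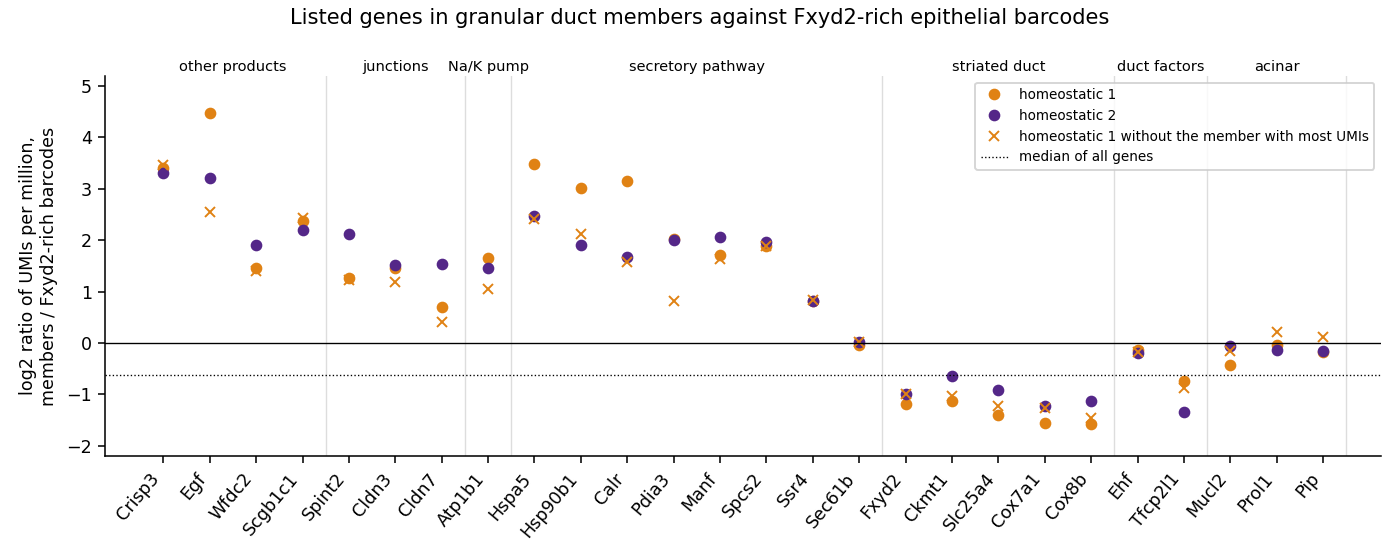
Log2 ratio of CPM in granular duct members against Fxyd2-rich epithelial barcodes for listed genes, by gene list; filled points are the 2 homeostatic libraries, crosses are homeostatic 1 without the member with most UMIs, and the dotted line is the median of all genes at -0.629. The secreted products and most ER genes shown lie above 0, 6 of the latter measured only through their level in members, the 5 genes placed under striated duct lie below 0, Atp1b1 of the same list lies above it, and the acinar genes Mucl2, Prol1 and Pip near 0.

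Acinar products were lower than in the summed UMIs of all other epithelial barcodes, a sum that includes few barcodes very rich in Mucl2. All 9 measured of 19 were lower, with a median log2 ratio of -4.60, when 3.02% of all genes were lower and their median was 0.318. Of these, 7 averaged 100 CPM in granular duct cells themselves, and all 7 were lower. In the other comparison, 0 of 7 measured differed by 2-fold from Fxyd2-rich barcodes. Mucl2 stood at 14370 and 20240 CPM in granular duct cells, 19390 and 21090 in Fxyd2-rich, 31710 and 20270 in stroma-marked and 234500 and 251600 in all other epithelial barcodes. Of the other epithelial barcodes, 224 of 3165 and 248 of 3355 held 10% Mucl2 UMIs or more, with medians of 54.0% and 52.4%. Per barcode, Mucl2 in granular duct cells was close to that of a typical epithelial barcode: the median was 1.70% and 1.66% of UMIs, against 1.98% and 2.16% in all other epithelial and 1.949% and 2.105% in Fxyd2-rich barcodes. The stroma-marked sum is carried by few barcodes: the median barcode held 0.476% and 0.4997% Mucl2 UMIs, 95% of barcodes held at most 2.894% and 3.004%, and the highest 73.9% and 78.9%. In 1 member of homeostatic 2 Mucl2 reached 23.5%. Bhlha15 and Lpo, acinar markers, had no UMI in the members.

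Defining markers of basal cells and fibroblasts were at 0, and leukocyte and erythroid RNA was present. Of 11 basal and myoepithelial genes 9 had no UMI in homeostatic members, Krt5, Krt14, Trp63 and Acta2 among them, and their summed level was 0 and 9.47 CPM. Of 7 fibroblast genes 6 had none, Col1a1 included, with a sum of 24.1 and 18.9 CPM. Of 8 endothelial genes 2 had none (Pecam1 by the rule), with a sum of 56.3 and 56.8 against 7382 and 7412 in stroma-marked barcodes. The 9 leukocyte genes summed to 715 and 256 CPM against 6583 and 6453 in stroma-marked and 378 and 708 in Fxyd2-rich barcodes, with Cd3e, Cd79a and, by the rule, Ptprc at 0. The 5 erythroid genes summed to 35610 and 194 CPM, and to 415 in homeostatic 1 without the deepest member. The part of these RNAs in the results was not tested.

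Outside the lists, 248 genes had at least 50 UMIs in the members of each library, a filter on the members alone. Of these, 12 were at least 2-fold above all other epithelial barcodes in both libraries. Over all measured genes 41 of 861 (4.76%) were higher, so the count says nothing of these genes as a set. Scgb1c1, a secretoglobin (a small secreted protein), led them at 659 and 687 CPM, 12.4-fold and 11.6-fold above. It lies at chr7:140845547-140846769, outside the kallikrein block, and has annotated antisense neighbours. G0s2, an inhibitor of the lipase that breaks down stored fat, stood at 2098 and 2353, 3.65-fold and 4.27-fold above. The others were Bglap3, Cd9, Reep5, Ly6e, Serpinb6a, Fkbp2, Stxbp6, Ppib, Nudt4 and Ift20, between 2.22-fold and 4.44-fold above. Cd9 is a tetraspanin membrane protein, Serpinb6a an intracellular inhibitor of serine proteases, Reep5 an ER-shaping protein, and Fkbp2 and Ppib are prolyl isomerases of the ER.

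Against Fxyd2-rich barcodes Scgb1c1 was 5.202-fold and 4.62-fold higher, and Bglap3, Ly6e, Cd9, Fkbp2, Itm2b and Ppib were 2.07-fold to 3.68-fold higher. Among 248 genes outside the lists with at least 50 UMIs in members of each library, the 10 lowest were Ifi27l2a, Bri3, Uqcr10, Gpx1, Rpl8, Mt1, Prdx2, Atp5j2, Ndufs5 and Cycs. Among the same kind of genes, the lowest against all other epithelial barcodes were the secretoglobins Scgb1b27 (0.0470 and 0.0560 of the level there) and Scgb2b27 (0.0550 and 0.0880). Malat1, Apoe, Nupr1, Ifi27l2a, Tmsb4x, mt-Co2, mt-Nd4 and mt-Co3 followed by the mean of both libraries. Malat1 stood at 0.714 and 0.0870 of that level, and at 0.0780 in homeostatic 1 without the deepest member. In homeostatic 1 the 3 mitochondrial genes stood at 1.37 to 1.51 of that level with the deepest member and at 0.537 to 0.565 without it.

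Within granular duct cells, the genes most like Klk1b22 were in large part of its own family, with Crisp3 among them. Over 65 and 110 cells thinned to 500 UMIs, Spearman's rho with Klk1b22 among 243 genes was highest for Klk1b16 (0.46 and 0.39). Klk1b3, Klk1b5, Klk1b9, Klk1b11, Crisp3 (0.27 and 0.25), Klk1b8, Klk1b1, Rpl30 and Itm2b followed. Klk1b4, Klk1b26 (0.27 and 0.12) and Klk1b21 ranked lower, at 12, 13 and 19. The points are cells of 1 library each, they share its free RNA, and their counts are low, so the values are weak and only describe these cells. Similar family transcripts could also share reads.

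The 5 granular duct cells of deligated 2 had more Klk1 for their Klk1b than the homeostatic cells did as sums, a difference with no test. They held 809, 1157, 1162, 1576 and 2152 UMIs, of which Klk1 took 20.9%, 35.1%, 32.8%, 31.9% and 32.2%. The Klk1b genes took 9.52%, 8.56%, 7.32%, 9.58% and 6.41%. Klk1b26 led Klk1b in all 5 and supplied 67.3% of it, and there were 5.82 Klk1 UMIs per Klk1b26 UMI, against 3.01 and 3.41 in homeostatic members. Crisp3 had 17, 5, 18, 18 and 37 UMIs. Egf had none. Mucl2 had 1 UMI over the 5 cells, or 146 CPM, against 14370 and 20240 in homeostatic members, and its level in stroma-marked barcodes of deligated 2 was 749 CPM.

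With 0 and 5 deligated cells no test of gene levels within granular duct cells was made. Fxyd2-rich barcodes of the deligated libraries numbered 20 and 90, and in them Klk1 stood at 94400 and 37220 CPM and the Klk1b genes at 13370 and 7787. In the homeostatic libraries these were 36950 and 36010, and 9289 and 8967. The deligated 1 sum rests on few barcodes, and the median barcode had Klk1 at 1.91% of UMIs there, 1.38% in deligated 2 and 1.47% and 1.40% in the homeostatic libraries. The groups overlap by these medians and by summed Klk1b, but not by summed Klk1. There 37220 CPM in deligated 2 lies close to 36950 in homeostatic 1. As a test, 2 against 2 libraries allow no exact two-sided p under 0.333. Fewer granular duct cells and less RNA per cell cannot be told apart in anything summed over barcodes.

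Kallikrein RNA was also compared between the groups in stroma-marked barcodes, which the rule left out for their Ptprc or Pecam1 UMIs. Of these barcodes 1 in deligated 1, 1 in deligated 2, 2 in homeostatic 1 and 4 in homeostatic 2 had 5% Klk1b UMIs or more. All 14 family genes fell in stroma-marked barcodes of the deligated libraries (edgeR quasi-likelihood test, Benjamini-Hochberg adjusted p under 0.05), with a median log2 change of -3.95, when 27.6% of 16258 genes fell, 19.3% rose and the median over all genes was 0.0166. Klk1 stood at 1125 and 1183 CPM in homeostatic 1 and 2 and at 41.1 and 98.7 in deligated 1 and 2, a log2 change of -4.03 (SE 0.438, adjusted p 0.00311). Klk1b26 stood at 154 and 188 against 18.6 and 11.3, a change of -3.50 (SE 0.292, adjusted p 0.00151). Klk1b22 stood at 19.5 and 28.6 against 4.11 and 1.38 (-3.17, SE 0.539, adjusted p 0.0103). The 2 groups did not overlap for any of these. In deligated 1 the levels of Klk1b26, Klk1b22 and Crisp3 rest largely on 1 barcode with 18.7% Klk1b UMIs, which held 417 of 511, 91 of 113 and 241 of 311 of their UMIs. Of Klk1 it held 271 of 1130 UMIs. Without all stroma-marked barcodes at 5% Klk1b or more, deligated 1 stood at 31.25 CPM for Klk1, 3.42 for Klk1b26 and 0.8003 for Klk1b22, and the log2 changes were -4.17 for Klk1, -4.435 for Klk1b26 (adjusted p 0.00285) and -4.17 for Klk1b22 (adjusted p 0.000693). Crisp3 then changed by -4.27 (adjusted p 0.000964), and all 14 family genes kept their call.

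The fall was shared with other epithelial products. Crisp3 stood at 78.5 and 91.9 CPM against 11.3 and 5.73, a log2 change of -3.32 (SE 0.351, adjusted p 0.0029), and Wfdc2 and Egf fell by 3.14 and 1.67 on the log2 scale. Of 8 other granular duct products tested 5 fell, of 15 acinar products 15 fell (median -5.98), and Mucl2 went from 31710 and 20270 to 77.1 and 749 CPM. All 7 fibroblast genes rose. How far kallikrein RNA in stroma-marked barcodes is free RNA, and how far it is RNA of attached epithelial cells, was not tested.

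**Figure D5:**
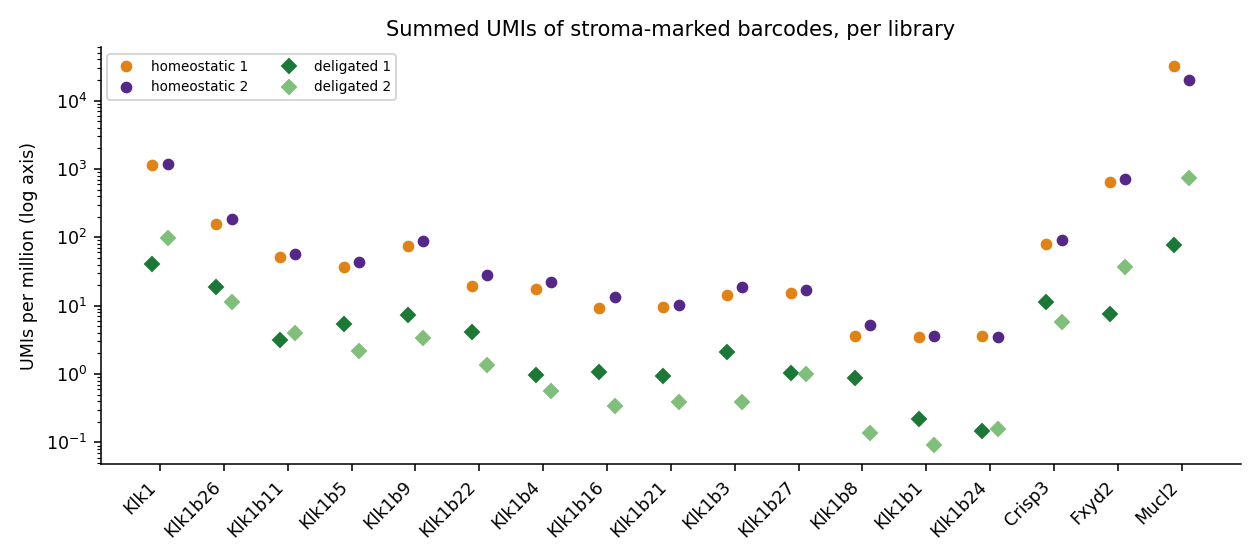
CPM (log axis) summed over stroma-marked barcodes, 1 point per library, for the 14 family genes, Crisp3, Fxyd2 and Mucl2. For each gene both deligated libraries lie below both homeostatic libraries.

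Counts over all genes in that test moved with single libraries. Where 1 library was left out, the lone library of its group was assumed to vary like the other group. Of 16258 genes 4482 fell and 3133 rose. Without homeostatic 1 these were 2586 and 529, without homeostatic 2 2660 and 599, without deligated 1 5897 and 5335 and without deligated 2 5681 and 4726. Leaving out deligated 1 or 2 gave a log2 change of -3.54 or -4.78 for Klk1, -3.91 or -3.17 for Klk1b26, -4.11 or -2.51 for Klk1b22 and -3.88 or -2.88 for Crisp3. Klk1b8 lost its call without homeostatic 2 (-2.90, adjusted p 0.0542). The largest falls were of Gm20388, Gm20532, Gm48099, Gm44511, Il31ra, Rapgef4os1, Lrp1b, 9330175M20Rik, Gm11084 and Gm7030, of which Il31ra had 1 UMI and the other 9 had 0 in both deligated libraries. The Cell Ranger version differs between the same groups, and its part in these zeros cannot be told apart from that of surgery. The largest rises were of Cpz, Il17a, Mfap4, Cilp, Kera, Gm44096, Gm12022, Thbs4, Col6a5 and Prg4.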

How the data were processed

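The deposited matrices hold raw UMI counts per gene and barcode, made per the file headers with Cell Ranger 6.0.1 (deligated) and 7.0.0 (homeostatic). The submitters' processing notes name Cell Ranger 6.0.1, Seurat and mm10 for all. Intron and strand settings are not given in the sources used here. Members and gene lists were chosen with earlier results of these data known, and the Fxyd2-rich set after seeing them. Counts were summed per library and class and scaled to CPM (per 1000000 UMIs). Named genes were the family, the listed genes, those outside the lists with the 25 highest (at least 2-fold and 50 UMIs in each homeostatic library) and 10 lowest ratios to other epithelial barcodes, the 10 largest called changes in each direction and the 10 most like Klk1b22; the same was done against Fxyd2-rich barcodes. Stroma-marked sums were tested with edgeR 4.0.16 (quasi-likelihood, TMM, filterByExpr), tested on simulated data, with DESeq2 1.42.0 as an alternative. The doublet score follows Scrublet (0.8% per 1000 barcodes). Of 31053 feature IDs, 99.62% were found in GENCODE M21. Python 3.11.15 and scipy 1.17.1 were used. Doublets were kept. Some genes are not reported here.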

Additional observations from a re-analysis of the deposited data

How the results depend on the processing

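All 14 family genes kept their fall in stroma-marked barcodes under 11 alternatives each, the one without stroma-marked barcodes at 5% Klk1b chosen after seeing the data,, apart from Klk1b8 without homeostatic replicate 2 (-2.90, adjusted p 0.0542). The numbers of genes that rose and fell ranged from 529 to 5335 and from 2586 to 5897 when 1 library was left out. DESeq2 called 2463 and 4104 of 18856. With the replicate number as a block they were 2550 and 4244. Same-numbered libraries did not deviate together (r = -0.0797). With 2 libraries per group this is a single contrast, so it cannot decide whether the numbers mark pairs. With members at 2% Klk1b UMIs the shares were 2.94% (homeostatic) and 0.122% (deligated), and the Klk1b share of members was 5.36%. There 67 genes were higher, but the set of measured genes changes with the setting, so this count is not compared. The Hspa5 log2 ratio to all other epithelial barcodes turned from 0.84 to -0.41. At 10% the homeostatic share was 0.247% and the Klk1b share 18.0%. Without the kallikrein family in the totals 204 of 1056 genes were higher. Against Fxyd2-rich barcodes 47 of 1110 genes were lower and Fxyd2 turned from 0.30 to -1.08, by the choice of those barcodes. Leaving out 1 library, the homeostatic share ranged from 0.555 to 0.912%, the deligated share from 0 to 0.0596% and the Klk1b share from 10.9 to 11.4%. The cause of the other moves was not tested. Member genes between groups were not fitted under any setting, since 1 or both deligated libraries held fewer than 10 members. Depth limits single members: a gene at under 100 CPM is unseen in most of them.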

Other observations

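Genes that regulate the granular duct were thinly covered in the 175 homeostatic members. Adra1a, the alpha-1A adrenergic receptor through which sympathetic nerves act on the gland, had 11 and 8 UMIs in 14 members, or 88.4 and 37.9 CPM (59.3 in homeostatic 1 without the deepest member). Other epithelial barcodes held 8.48 and 7.58 and Fxyd2-rich barcodes 14.8 and 14.9 CPM. The thyroid hormone receptor genes Thra and Thrb had 15 and 7 UMIs over both libraries. Of 14 genes for hormone response and 14 for autonomic and purinergic receptors, none reached the level needed for a call with all UMIs in the totals.

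Scnn1b, a subunit of the epithelial sodium channel, had 8 and 7 UMIs in members, or 64.3 and 33.2 CPM, against 8.70 and 8.11 in other epithelial barcodes. Ascl3, a transcription factor of duct ionocytes, stood at 16.1 and 9.47 CPM in members against 146 and 92.0 in Fxyd2-rich barcodes. Of 15 injury and regeneration genes 6 had no UMI in homeostatic members, Krt5, Krt14 and Krt17 among them.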
